A study of Rattus norvegicus with 6 samples.

Results

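The untreated control cultures of newborn rat heart muscle cells were described by the level of their transcripts, from 2 of the 6 expression arrays of the study. The members were chosen by label: both arrays titled as control were taken, and 31042 probe sets, all except the array controls, were ranked by the mean of their log2 signals. The study set untreated cells beside cells given phenylephrine and cells under mechanical stretch, with 2 arrays in each of the 3 groups. All cells came from hearts of Wistar rats 1 to 2 days old, were freed with pancreatin and collagenase, were purified away from fibroblasts by a Percoll gradient and were placed in serum-containing medium. Control cells received no treatment. The phenylephrine arrays are labelled with a dose of 50 µmol/l, and their treatment text also lists endothelin-1 and angiotensin II, after which no array is titled. The stretch arrays are labelled with 112% biaxial stretch for 24 h on collagen-coated silicone after a period without serum. The sources used here do not give the plating time, growth surface or serum of the control cells at harvest. RNA of several cell preparations was pooled, and the labels do not tie the arrays of a group to different cultures. The p-values are therefore about the spread among these samples alone, and that spread may be technical. The treated arrays served only to measure the spread between replicates, and no treatment was compared with control.

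A heart muscle cell contracts when calcium released from the sarcoplasmic reticulum frees actin in the thin filament to bind myosin in the thick filament. Many contractile and metabolic proteins of striated muscle exist in several forms, and around birth the heart exchanges some fetal or atrial forms for adult ventricular ones while fuel use moves from glucose towards fatty acids. Cultured newborn myocytes are a standard model of cardiac growth, and they often carry other heart cells from the digest, of which fibroblasts are the best known.

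The control arrays were closely alike. Their median signals were 8.31 and 8.31 log2, their highest signals 14.85 and 14.75, and their correlation across the probe sets, which are not independent samples, was 0.995. Probes differ in how well they bind, and signals flatten near the top of the scale. Levels of different probe sets are therefore given as signals, not amounts. As a measure of this, 4525 genes had more than 1 probe set, and the brightest and dimmest probe sets of such a gene lay a median of 1.22 log2 apart. For an idea of a dim signal, 47 genes typical of other organs, such as lens, liver and pancreas, had a median signal of 7.74 log2, and their 90th percentile of 8.47 is called the reference level. Of 14217 genes, each read by its brightest probe set, 62.5% lay above that level, and the median of all genes was 9.01. In RNA of a whole culture, fewer cells of a type and less RNA per cell cannot be told apart.

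The defining genes of heart muscle were among the brightest on the arrays. Myl2, the regulatory light chain of ventricular myosin, read 14.75 and 14.65 log2 on the control arrays (14.70 ± 0.07, SD, n = 2). Tnnt2, cardiac troponin T, read 14.64 and 14.51 (14.57 ± 0.09), and Myh6, the fast α-myosin heavy chain, read 14.60 and 14.52 (14.56 ± 0.06). Nppa, the atrial natriuretic peptide, read 13.85 and 13.64 (13.75 ± 0.15), below these but far above the 10.3 that marked the 75th percentile of all genes. On both arrays all 4 markers of the labelled cell type were thus bright.

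The 30 brightest probe sets with a single gene symbol belonged to 29 genes, since Tpm1 was read by a pair of them. Sorted by role after the genes were seen, 10 encode subunits of the respiratory chain or ATP synthase, 7 sarcomere proteins, 5 parts of the translation machinery, 3 enzymes or carriers of fuel, 2 mitochondrial carriers and 2 proteins of calcium uptake. The mitochondrially encoded cytochrome oxidase subunit COX2 came first with 14.84 and 14.75 log2, and COX1, from the same genome, read 14.68 and 14.59. Both control arrays therefore placed mitochondrial transcripts beside Myl2.

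Among the other sarcomere genes, Myh7, the slow β-myosin heavy chain, read 14.61 and 14.55. Tnnc1, the calcium sensor of the thin filament, read 14.62 and 14.53. Tpm1, which covers the myosin sites on actin, read 14.57 and 14.51. Each of these lay within a few hundredths of the next. Pln, the brake on the calcium pump of the sarcoplasmic reticulum, read 14.59 and 14.43, and the pump itself, Atp2a2, read 14.51 and 14.49. Fabp3, which carries fatty acids in the cytosol, read 14.51 and 14.46. Ldhb, the heart form of lactate dehydrogenase, read 14.46 and 14.39. Slc25a4, the muscle carrier of ATP out of mitochondria, read 14.53 and 14.42. Eef1a1, which brings amino acids to the ribosome, had the widest spread of the 30 at 14.60 and 14.34.

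The order within this group was not resolved by the arrays. The 30 probe sets spanned 0.45 log2 in all, and of the 29 gaps between neighbours only 1, that between COX2 and Myl2, exceeded the median SD of 0.07 between the arrays. Replicate 1 was the higher array for 30 of the 30 as deposited, with a median difference of -0.09 for replicate 2 minus replicate 1. After quantile normalization replicate 1 was higher for 8 of the 30, and the median difference was 0.01. Another 12 probe sets were as bright: 8 carry several symbols and 4 none, and they are not named. The brightest of all carries 2 symbols.

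**Figure D1:**
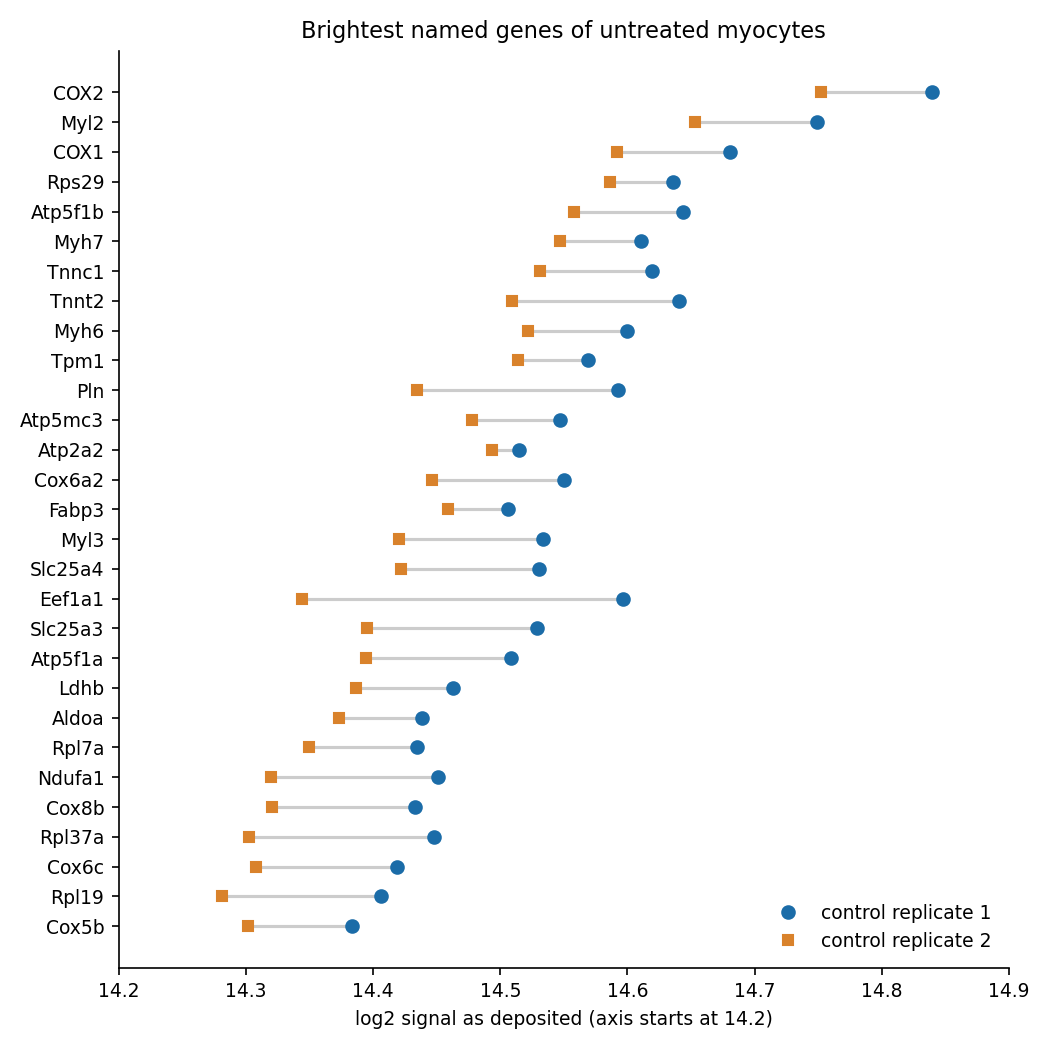
Log2 signals of the 29 brightest named genes on control replicate 1 (circles) and control replicate 2 (squares), ordered by mean; the horizontal axis does not start at 0. The genes run from COX2 at 14.84 and 14.75 to Cox5b at 14.38 and 14.30, and replicate 1 is the higher array for each.

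The sequence just upstream of the start site is shown for 3 of the heart muscle genes above, because it is where such genes carry their start signals and factor sites, and because these 3 windows hold a searched motif. Each is the 100 bases before the RefSeq start in build GRCr8, read 5′ to 3′ on the gene's strand. They lie at chr5:163712084-163712183 on the plus strand for Nppa, chr15:32411698-32411797 on the minus strand for Myh6 and chr13:49819023-49819122 on the plus strand for Tnnt2. The same windows of Nppb, Myl7, Pln and a further start of Tnnt2 held none of the searched letters and are not shown. Capitals mark TATAAA, the letters of a TATA box, or CATTCC, the core letters bound by TEAD factors.
Nppa: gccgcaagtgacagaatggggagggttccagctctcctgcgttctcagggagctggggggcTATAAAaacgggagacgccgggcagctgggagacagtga
Myh6: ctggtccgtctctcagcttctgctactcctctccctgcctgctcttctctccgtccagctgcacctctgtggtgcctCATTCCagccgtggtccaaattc
Tnnt2: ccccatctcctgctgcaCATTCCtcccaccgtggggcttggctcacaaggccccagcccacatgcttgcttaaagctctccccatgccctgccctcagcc

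The TATAAA of Nppa began 39 bases before the start, and CATTCC began 23 bases before that of Myh6 and 83 bases before that of Tnnt2. Over 250 upstream bases and both strands, TATAAA was present in 14.1% of 27457 genes in 1 of the 23 brightest genes with a RefSeq entry, Cox8b, and in 1 of 18 pan-cardiomyocyte genes. CATTCC was present in 12.9% of all genes and in 6 of the 23 (Myh6, Myl3, Ndufa1, Rpl37a, Tnnt2 and Tpm1), but in 2 of the 18, so its count depended on the set of genes. AGATAA, the core letters bound by GATA factors, was present in 10.9% of all genes, in 4 of the 23 and in 4 of the 18. The CArG box of serum response factor was present in 1.62% of all genes and in 1 gene of each set. These are matches of letters in a window, and they show neither binding nor the lack of it.

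Related forms of the same protein were compared for 46 pairs of genes, each gene by its brightest probe set. The form listed first, in most pairs the one usual in adult heart, was brighter on both arrays in 37 pairs, the other form in 8, and 1 pair changed order between the arrays. In 32 pairs the difference exceeded 1.22 log2, the median range between probe sets of a single gene, and in 26 of these the first form was brighter. Many genes have a wider range, and 26 pairs exceeded its upper quartile of 2.15, a limit chosen after seeing the data, 23 of them with the first form brighter. Myl2 and Myl7, described next, did not. In 15 pairs at least 1 form was below the reference level, and there the size of the difference is not exact. The SD of a pair's difference over both arrays had a median of 0.08. The arrays thus repeated the differences closely, while what the probes add to them is unknown.

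The myosin heavy chains could not be ordered. Myh6 minus Myh7 was -0.01 on one array and -0.03 on the other, with both genes near the top of the scale. The dimmer probe set of each gene read 11.13 for Myh6 and 11.94 for Myh7. The light chains differed more. Myl2 exceeded the atrial light chain Myl7 by 2.04 and 2.13 log2, with Myl7 at 12.71 and 12.52. This order turned to -0.27 when the probe sets of a gene were averaged, since the other Myl2 probe set read 9.98. Myl3, the ventricular essential light chain, exceeded the fetal and atrial form Myl4 by 2.23 and 2.42.

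On the thin filament, the cardiac forms of troponin T and C were near the top of the scale while the skeletal forms were dim. Beside Tnnt2 at 14.64 and 14.51 log2, the slow skeletal Tnnt1 read 7.25 and 7.16 and the fast skeletal Tnnt3 7.64 and 7.65. Beside Tnnc1 at 14.62 and 14.53, the fast skeletal Tnnc2 read 7.98 and 7.75. All 3 skeletal forms were below the reference level, so the sizes of these differences are not exact. The choice of probe set matters as well. The mean difference of Tnnt2 and Tnnt1 was 7.37 by the brightest probe sets and 3.92 when averaged. Tnnt1 had 1 probe set, and the drop came from the other Tnnt2 probe set, which read 7.68, also below the reference level. Troponin I was different: the adult cardiac Tnni3 read 14.25 and 14.15 and the fetal slow skeletal Tnni1 14.10 and 13.95, a difference of 0.15 and 0.20 that is within the range between probe sets of a gene. Tpm1 exceeded Tpm2 by 3.77 and 3.82, and by 1.49 when the probe sets of each gene were averaged. In the Z-disc, the muscle α-actinin Actn2 exceeded the non-muscle Actn1 by 3.03 and 2.84.

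Calcium handling genes were bright in their cardiac forms, and several skeletal forms were below the reference level. Atp2a2 read 14.51 and 14.49 log2 and the fast skeletal pump Atp2a1 8.30 and 8.40. Ryr2, the cardiac calcium release channel, read 13.34 and 13.21, while Ryr1 read 7.97 and 7.86 and Ryr3 7.75 and 7.63. With a form below the reference level, neither pair has an exact size. The mean difference of Atp2a2 and Atp2a1 was 6.15 by the brightest probe sets and 2.79 when all probe sets were averaged. Atp2a1 had 1 probe set, and the drop came from the other Atp2a2 probe sets, with means from 7.89 to 12.75. Casq2, the cardiac calcium store protein, exceeded its skeletal form Casq1 by 4.97 and 4.84, with Casq1 just above the reference level at 8.70 and 8.72. Pln exceeded the atrial pump inhibitor Sln by 3.49 and 3.41, and by 1.49 when averaged, and Sln at 11.10 and 11.03 was itself above the 75th percentile of genes. The L-type channel Cacna1c read 11.01 and 10.88 beside Cacna1d at 7.89 and 7.88, below the reference level. The T-type channels Cacna1g and Cacna1h changed order, with differences of 0.17 and -0.02. Camk2d read 11.98 and 11.99, and the neuronal form Camk2b of calmodulin-dependent kinase 7.97 and 8.01. Their mean difference was 3.99 by the brightest probe sets and 1.68 when averaged.

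Metabolic pairs went both ways. In energy transfer, the muscle creatine kinase Ckm exceeded the brain form Ckb by 3.10 and 3.12 log2. The muscle phosphofructokinase Pfkm exceeded the liver form Pfkl by 3.82 and 3.49, and by 1.58 when probe sets were averaged. In contrast, the widely expressed forms were brighter for hexokinase, enolase, phosphoglycerate mutase and glucose transporters. Hk1 read 12.25 and 12.18, and Hk2, the insulin-responsive hexokinase, 8.49 and 8.30, with a mean below the reference level. The mean of Hk2 minus Hk1 was -3.83 by the brightest probe sets and -1.67 when averaged. Eno3 minus Eno1 was -3.62 and -3.44, and Pgam2 minus Pgam1 was -2.18 and -2.01, the latter pair below the upper quartile of 2.15 by its mean. Slc2a4, the insulin-responsive glucose transporter, minus Slc2a1 was -1.23 and -1.33, just past the median range between probe sets. For carnitine palmitoyltransferase, the gate of fatty acids into mitochondria, the muscle form Cpt1b and the liver form Cpt1a differed by 0.52 and 0.37, within that range, and by 1.67 when probe sets were averaged. The translation factor pair Eef1a2 minus Eef1a1 was -2.19 and -1.89, and -4.06 when averaged, so the form that replaces the other in adult muscle was the dimmer.

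Of the pair of α1-adrenergic receptors compared, through which phenylephrine acts, 1 was bright and the other dim. Adra1b read 12.17 and 12.17 log2, and Adra1a read 7.69 and 7.77, below the reference level. A further α1 receptor, Adra1d, named after its value was seen, read 9.05 and 9.20, above that level. Adra1a was read by a single probe set, so its low signal has no second reading. The angiotensin receptors Agtr1a and Agtr2 differed by 0.99 and 0.55, the least repeatable pair with an SD of 0.31. Of the cardiac zinc finger factors, Gata4 exceeded Gata6 by 0.67 and 1.11, also with an SD of 0.31, and by 0.37 when averaged.

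**Figure D2:**
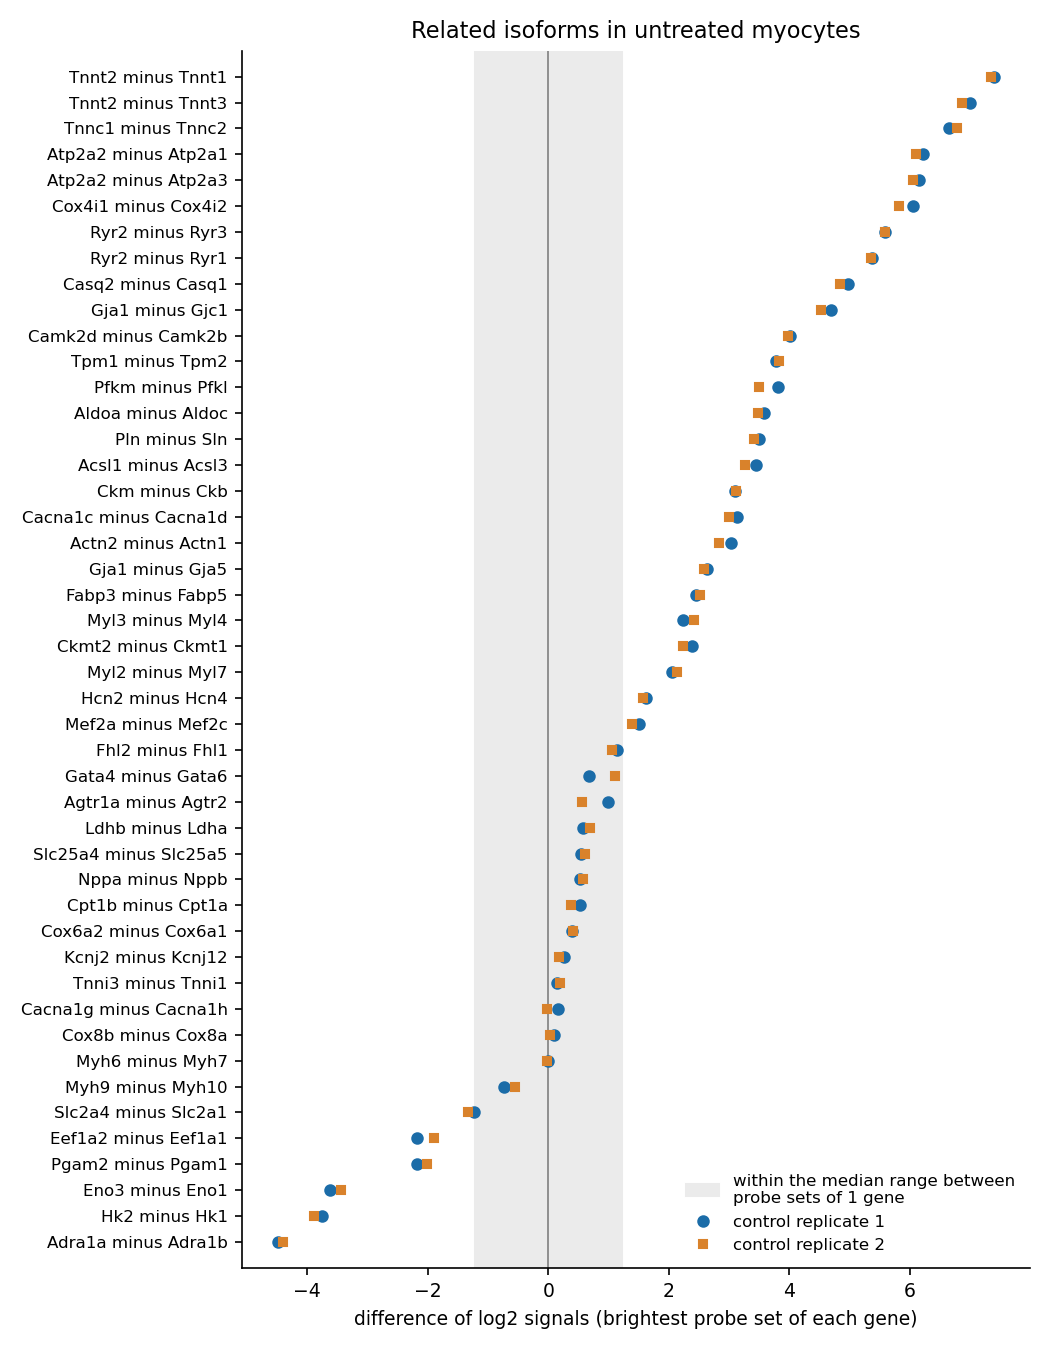
Difference in log2 signal between related forms in 46 pairs of genes, first minus second, on control replicate 1 (circles) and replicate 2 (squares); the grey band is 1.22 log2 either way, the median range between probe sets of 1 gene. The points of a pair lie close together, 14 pairs lie inside the band by their mean, and in 15 pairs a form below the reference level leaves the position inexact.

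Among the cell type lists, the markers of heart muscle had the highest medians. Each count below stands beside the 62.5% of all genes that lay above the reference level. All 22 measured pan-cardiomyocyte genes lay above the reference level, with a median of 13.7 log2 against 9.01 over all genes. The dimmest was the intercalated disc gene Xirp1 at a mean of 11.1. Ventricular markers were above the level in 8 of 9 cases (88.9%, median 12.8) and atrial markers in 10 of 13 (76.9%, median 11.1). The brightest atrial markers were Clu at 14.31 and 14.14, a secreted chaperone that other cells also make, and Nppa. Pam, the enzyme that amidates peptide hormones in atrial granules, read 13.66 and 13.63. The dimmest was Nr2f1, a regulator of atrial identity, at 7.24 and 7.11, and on the ventricular list it was the channel subunit Kcne1 at 7.37 and 7.38. Of the conduction markers 4 of 10 (40.0%) were above the level, led by Etv1, a factor of fast conducting myocytes, at 10.99 and 10.98. The pacemaker channel Hcn4 read 8.72 and 8.84, just above it.

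Of the fibroblast markers 16 of 18 (88.9%, against 62.5% of all genes) lay above the reference level, with a median of 10.2. Sparc, a collagen-binding matrix protein, read 13.67 and 13.56 log2, and Vim, the intermediate filament of mesenchymal cells, 13.38 and 13.23. The collagen gene Col3a1 read 13.22 and 13.26 and Postn, a matrix protein of activated fibroblasts, 13.08 and 12.92. The dimmest was the microfibril gene Mfap5 at 7.26 and 7.21. The other member below the level, named after its value was seen, was the protease gene Fap at 7.86 and 7.82. The list was not uniform: 8 of the 18 markers lay above the upper quartile of all genes, 10.3 log2. Further markers, named after their values were seen, lay near the median of all genes, 9.01. Ddr2 read 9.22 and 9.19, Tcf21 9.15 and 9.08 and Pi16 9.06 and 9.13. Thy1 read 8.93 and 8.94 and Fbln1 8.77 and 8.76.

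For smooth muscle and pericytes 9 of 13 markers (69.2%, against 62.5% of all genes) were above the level (median 8.95), with Acta2, smooth muscle α-actin, at 10.71 and 10.67, and the brightest, the channel subunit Abcc9 at 12.04 and 11.88, is also used by myocytes. Endothelial markers were above in 6 of 13 cases (46.2%, median 8.36), and the receptor Kdr led with 10.27 and 10.12, while the related Flt1 read 7.55 and 7.57. Macrophage and leukocyte markers were above in 7 of 18 (38.9%, median 8.43), led by the lysozyme gene Lyz2 at 12.54 and 12.49 and by Fcer1g, a signalling chain of myeloid receptors, at 10.98 and 11.03. The neutrophil gene S100a8 read 6.90 and 6.86. Further macrophage genes, named after their values were seen, lay on both sides of the level. Cd68 read 10.41 and 10.42, while Csf1r read 8.32 and 8.32, C1qa 8.46 and 8.45 and Mrc1 8.12 and 8.01. Mesothelial markers were above in 5 of 9, with Upk1b at 9.72 and 9.70, and red cell markers in 2 of 5, with the globin Hbb at 9.38 and 9.43. Schwann cell and neuron markers were above in 4 of 11, and of those the brightest, the myelin gene Mbp, read 8.93 and 8.96. Both counts moved with the level. At the 75th percentile of the other-organ genes, 8.04 log2, 10 of 13 endothelial markers (76.9%) and 13 of 18 macrophage and leukocyte markers (72.2%) were above, near the 74.3% of all genes.

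The adipocyte and skeletal muscle lists had the lowest medians, 7.67 and 7.46 log2. Of 6 adipocyte genes only Fabp4, which capillary endothelium and macrophages also make, lay above the level, at 11.17 and 11.07 log2. Of 11 skeletal muscle genes only Myh1 lay above it, at 13.35 and 13.10. The 5 probe sets annotated to Myh1 had means from 10.96 to 13.23, while Myh4, a neighbouring fast myosin gene, read 6.35 and 6.51. Whether the Myh1 probe sets read transcripts of other myosin genes was not tested. RNA of both sexes was present on both arrays, with the X-inactivation transcript Xist at 10.57 and 11.37 and the Y-linked Uty at 10.40 and 10.15 and Eif2s3y at 10.09 and 9.71. The other Xist probe sets differed by -0.06, -0.18 and -0.00, replicate 2 minus replicate 1. The higher Xist signal on replicate 2 thus rests on its brightest probe set alone.

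**Figure D3:**
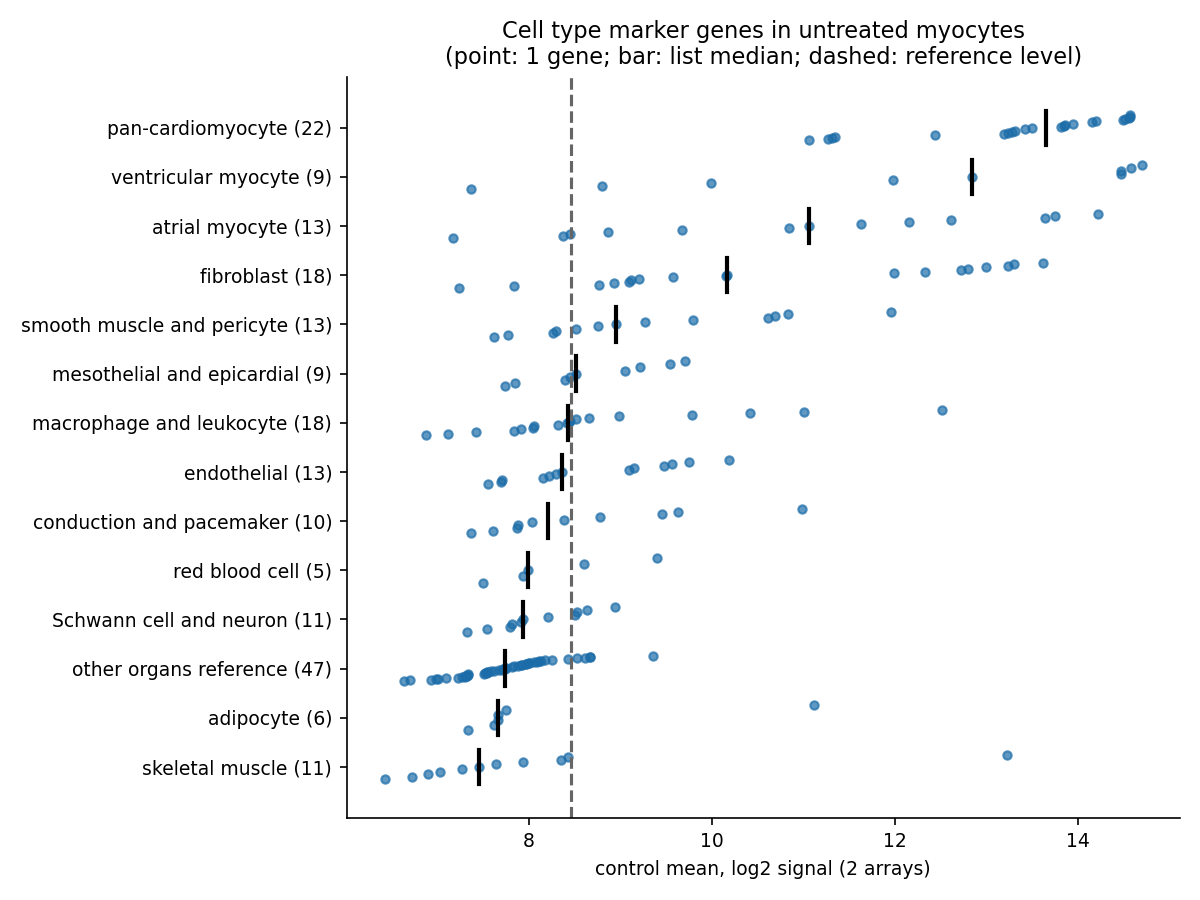
Mean log2 signal on both control arrays for the genes of 14 lists (points, 1 per gene; number of genes in brackets), with each list's median as a bar and the reference level of 8.47 as a dashed line. The pan-cardiomyocyte list lies wholly to the right of the line, the fibroblast list mostly so, and the adipocyte and skeletal muscle lists lie left of it except for Fabp4 and Myh1.

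The structural genes outside the filaments were bright as well. Of the titin and Z-disc genes 21 of 22 were above the reference level (median 12.9 log2). Cryab, a small heat shock protein of the Z-disc, read 14.37 and 14.26, and Ankrd1, a stretch-responsive titin partner, 14.23 and 14.08. Neb, the giant thin filament ruler of skeletal muscle, read 7.52 and 7.62. Gja1, the main gap junction protein of ventricular myocytes, read 14.31 and 14.17, above the atrial and conduction form Gja5 at 11.67 and 11.59. Their mean difference was 2.61 by the brightest probe sets. It was 0.81 when probe sets were averaged, within the median range of 1.22 between probe sets of a gene.

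Receptors and secreted factors had medians below the 9.01 log2 of all genes. Of 22 receptors for growth stimuli 11 (50.0%, against 62.5% of all genes) were above the reference level (median 8.48), and the shared cytokine receptor chain Il6st followed Adra1b at 11.74 and 11.62. Of 31 secreted factors 18 (58.1%) were above it (median 8.63), near the share of all genes. The brightest were the natriuretic peptides Nppa and Nppb, the latter at 13.33 and 13.07, and Vegfb, a growth factor for vessels and fat uptake, at 12.37 and 12.23. Myostatin, Mstn, which restrains muscle growth, read 7.03 and 7.09. Of 32 cardiac transcription factors 24 (75%) were above the level (median 10.1), led by Mef2a at 12.78 and 12.57 and by Nkx2-5, an early factor of heart formation, at 12.57 and 12.64.

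Genes of energy metabolism were read almost throughout. All 30 fatty acid genes lay above the reference level (median 12.1 log2), and so did 20 of 24 genes of glycolysis (83.3%, median 11.9), against 62.5% of all genes. In β-oxidation, Hadhb, a subunit of the trifunctional protein, read 13.40 and 13.19 and Acadl, a dehydrogenase for long chains, 13.27 and 13.12. The respiratory chain list was above in 21 of 22 (median 14.0), with the lung form Cox4i2 as the exception at 8.33 and 8.35, and Cox4i1 read 14.37 and 14.16. All 17 measured genes of ribosome and translation were above the level (median 14.0).

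Of 32 cell cycle genes 20 were above the reference level (median 8.65), near the share of all genes. The G1 cyclin Ccnd2 read 12.37 and 12.37 log2, the replication clamp Pcna 12.20 and 12.11 and the inhibitor Cdkn1b 12.18 and 12.07. The S and G2 cyclin Ccna2 was the dimmest at 7.47 and 7.25. Other genes of dividing cells, named after their values were seen, lay on both sides of the level. Mki67 read 8.28 and 8.15 and Top2a 8.25 and 8.19, while the mitotic kinase Cdk1 read 8.84 and 8.86 and the replication helicase subunit Mcm2 9.54 and 9.51.

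Of 32 immediate early and stress genes 25 (78.1%, against 62.5% of all genes) were above the reference level (median 9.85). After Cryab they were led by the small heat shock proteins Hspb7 at 13.74 and 13.74 log2 and Hspb1 at 13.61 and 13.55. Of 23 inflammation genes 18 (78.3%) were above it (median 9.69). Reg3b, a secreted lectin made in injury, read 13.97 and 13.81, the phospholipase Pla2g2a 12.57 and 12.53, and Ccl2, which attracts monocytes, 12.13 and 11.84. Il6 was the dimmest at 7.34 and 7.26. The matrix list was above in 33 of 34 (median 11.8), with Ccn2, a matrix growth factor, at 13.28 and 13.05 and Spp1, osteopontin, at 13.14 and 12.85. Some of the fibroblast and macrophage markers given above were bright on the same arrays, and their part in these signals was not tested.

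The control arrays were then compared with each other. Their difference, replicate 2 minus replicate 1, had a median size of 0.08 log2, and 95% of probe sets differed by less than 0.29. Its SD was 0.15, against 0.18 between the phenylephrine arrays and 0.15 between the stretch arrays. Of 31042 probe sets 19 (0.0612%) differed by at least 1 log2, 10 with replicate 2 higher (0.0322%) and 9 with it lower (0.029%), and 359 differed by at least 0.5. The difference moved with brightness: with the probe sets in 10 equal classes of brightness, its median was -0.13 in the brightest class and as high as 0.03 among dim ones, and after quantile normalization the medians of all classes lay between -0.00 and 0.01.

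The controls' own difference was also tested against the spread of the other arrays. That spread is made of the differences between replicates 1 and 2 within the treated groups. A replicate difference shared by all groups therefore enlarges the error, and a count of 0 does not show that there is none. With that spread taken from the 4 treated arrays in limma, 0 probe sets passed a Benjamini-Hochberg adjusted p of 0.05, and 678 (2.18%) had an unadjusted p below 0.05. In 3 fits that bear on it this count was larger: it was 878 when the difference between replicates 1 and 2 was first removed from the treated arrays, 84 without stretch replicate 1 and 75 without stretch replicate 2.

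Taken over all probe sets, replicates with the same number tended to deviate in the same direction in all 3 groups. The replicate difference of the controls correlated with that of the stretch arrays at r = 0.673 (rho 0.527). With that of the phenylephrine arrays it correlated at r = 0.487 (rho 0.490). The tendency did not hold for every gene. In the controls the brightest probe sets of Myl2, Tnnt2, Myh6 and Nppa were lower on replicate 2. In both treated groups they were higher on it. For Myl2 the differences were -0.10 in the controls, 0.29 in stretch and 0.27 in phenylephrine, as deposited. A replicate term fitted to all 6 arrays with limma, with group as a block, called 4078 probe sets (13.1%), 481 higher (1.55%) and 3597 lower (11.6%) on replicate 2. The split depended on scaling: lower calls were 88.2% as deposited and 66.4% of 2206 after quantile normalization. Without the stretch group the count was 1107. Leaving out a single stretch array nearly repeats that fit, since the array left over is matched by its own group level.

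The treated arrays alone, which share no array with the controls, gave the same directions for the probe sets that differed most between the controls. Fitted without the controls, the replicate term was called higher for 1.28% and lower for 11.2% of all probe sets. Of the 10 probe sets at least 1 log2 higher on control replicate 2 it was called higher for 10, and of the 9 at least 1 log2 lower it was called lower for 9. At 0.5 log2 the shares were 92 of 108 (85.2%) higher and 216 of 251 (86.1%) lower. Of the 108 higher probe sets, 108 had the same sign in stretch and 79 in phenylephrine, and 88 and 0 of them passed 0.5 log2 there. Of the 251 lower ones, 251 and 242 had the same sign, and 116 and 55 passed 0.5 log2.

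**Figure D4:**
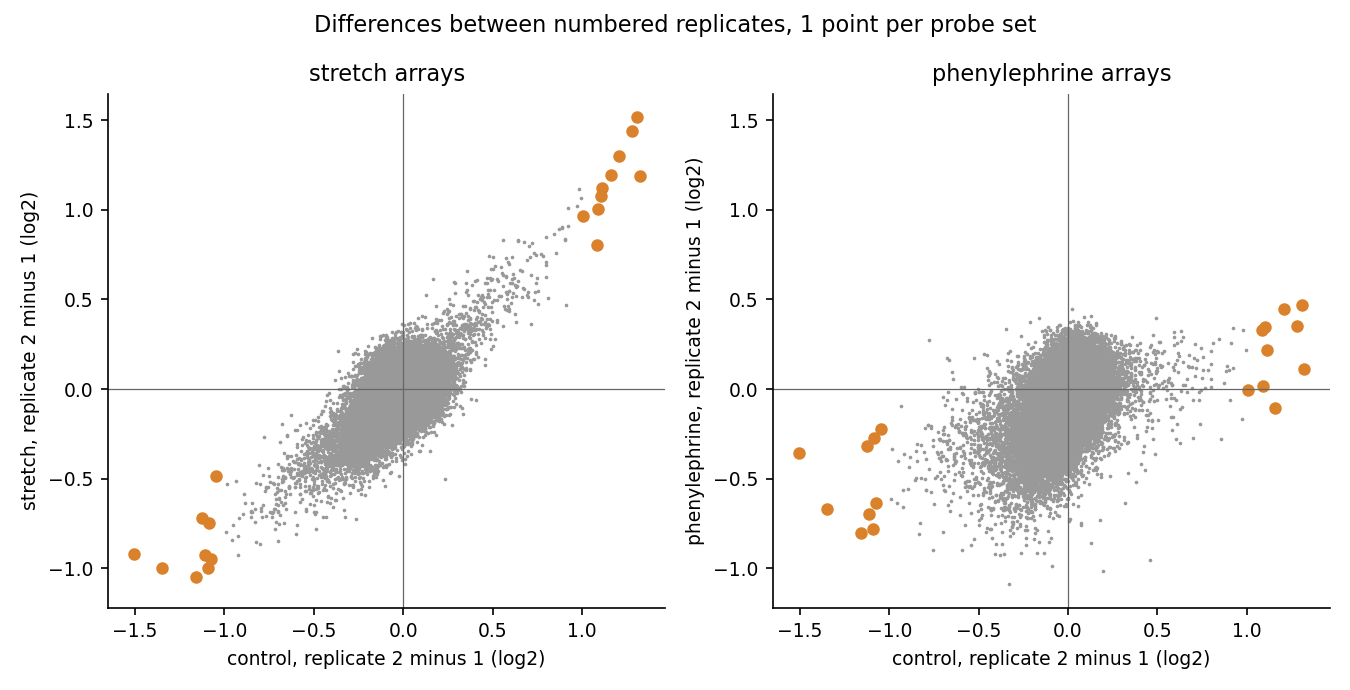
Replicate 2 minus replicate 1 in log2 for each of 31042 probe sets, controls on the horizontal axis against the stretch arrays (left) and the phenylephrine arrays (right); larger points mark the 19 probe sets at least 1 log2 apart in the controls. The marked points have the same sign in 19 of 19 cases for stretch and 17 of 19 for phenylephrine.

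The genes with the largest control differences were each read by a dimmer probe set that differed and a brighter one that differed by less than 0.5 log2. Among the 10 named with replicate 2 higher, Pdlim5, a Z-disc adaptor, went from 10.12 to 11.43 log2 on that probe set, while its brightest probe set differed by -0.12. The calcium release channel Ryr2 went from 10.31 to 11.59, while its brightest probe set differed by -0.13. Itsn2, an endocytic scaffold, went from 7.66 to 8.98, and Tns1, which links integrins to actin, from 10.47 to 11.57. The same direction was seen in stretch for 10 of the 10, with differences of 0.80 to 1.52, and in phenylephrine for 8 of the 10, with differences of -0.17 to 0.47. Itsn2 differed by 0.11 in phenylephrine, and the exceptions were the transcription factor Mitf at -0.17 and the acetyltransferase subunit Naa15 at -0.01.

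Among the 10 named with replicate 2 lower, Gja1 went from 11.34 to 9.83 log2, while its brightest probe set, the one given above, differed by -0.14. Eif4g2, a factor of cap-independent translation, went from 11.88 to 10.54, against a difference of -0.26 on its brightest. The splicing regulator Mbnl1 went from 9.97 to 8.81, the RNA helicase Ddx3x from 9.69 to 8.59 and Ghr, the growth hormone receptor, from 9.95 to 8.87. In stretch and in phenylephrine 10 of the 10 had the same direction, with phenylephrine differences of -0.80 to -0.27.

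The contrast with the brightest probe set of the gene held for all 20 named genes. Each had a brighter probe set, and its brightest differed by -0.27 to 0.19 log2 for the 10 higher and by -0.39 to 0.24 for the 10 lower. Not every other probe set was so close. Further ones differed by 0.71 for Pbrm1, -0.64 for Naa15, -0.69 for Mbnl1 and -0.67 for Nedd4, that of Naa15 against the direction of its named probe set. As background, 22.7% of 12234 probe sets above the median with 1 symbol had a brighter probe set for the same gene, whereas 220 of the 260 that differed by at least 0.5 log2 did (84.6%). Part of this contrast is that 6428 of the 12234, but 242 of the 260, had any other probe set. Among those, 2773 of the 6428 and 220 of the 242 had a brighter one. In 216 of those 220 the brightest probe set differed by less than 0.5. Since these differences chose the genes, the counts are a description. Over all 6 arrays the replicate term of limma passed for 20 of the 20, with Benjamini-Hochberg adjusted p from 2.29e-05 to 0.0290, but the controls are among those arrays. The myosin genes showed it too, chosen after their values were seen: the dimmer probe sets of Myh6 and Myh7 differed by -0.85 and -0.63, and their bright ones by -0.08 and -0.06.

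**Figure D5:**
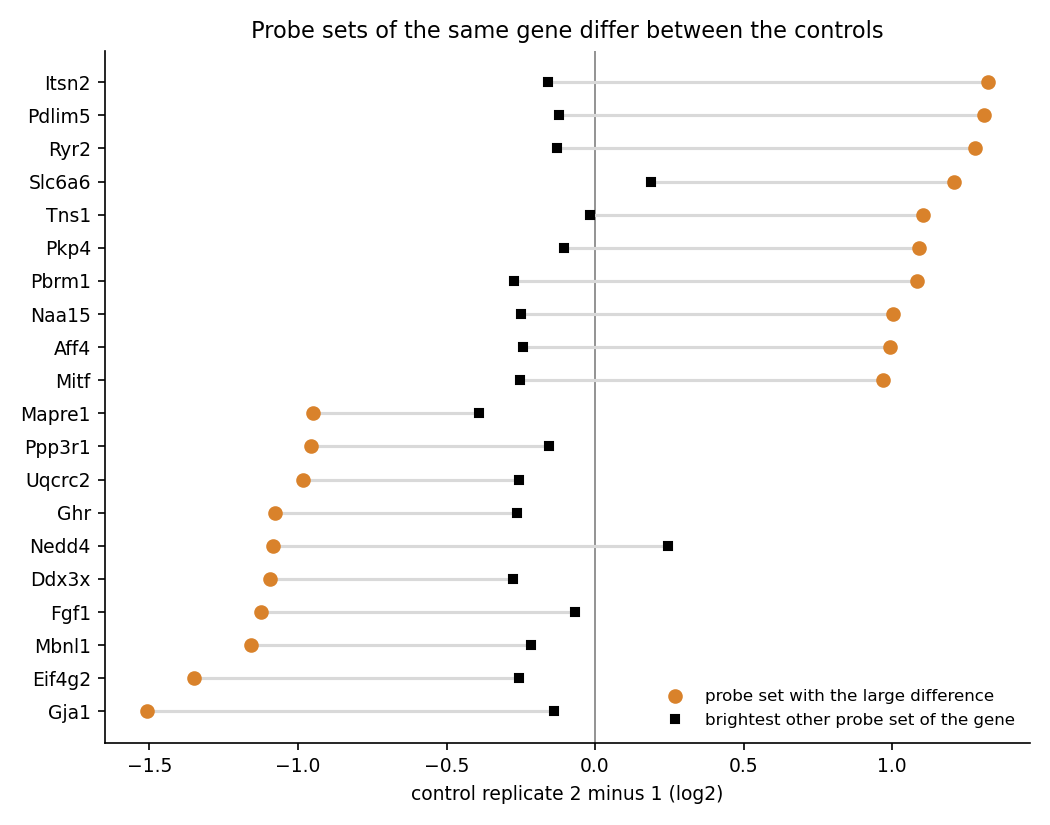
Control replicate 2 minus replicate 1 in log2 for the probe set with the large difference (circles) and for the brightest other probe set (squares) of 20 named genes. The circles lie from -1.51 for Gja1 to 1.32 for Itsn2, and the squares lie between -0.39 and 0.24.

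Measures of RNA quality also differed between the control arrays. The 3′ probe set exceeded the 5′ probe set by 0.36 log2 on replicate 1 and 0.59 on replicate 2 for Gapdh, and by 1.18 and 1.39 for β-actin, while for hexokinase it was 1.49 and 1.29. The 5S ribosomal RNA probe set read 11.4 and 11.8. On the stretch arrays, replicate 2 was likewise higher for Gapdh (0.36 and 0.48) and β-actin (1.10 and 1.41). Hexokinase was 1.45 and 1.29 there, and the 5S probe set read 10.7 and 11.1. On the phenylephrine arrays Gapdh was 0.25 and 0.30, β-actin 1.04 and 0.97 and hexokinase 1.65 and 1.88. The 5S probe set there read 10.6 and 9.37, opposite in direction to the controls, and the median of the spiked controls was 10.1 and 9.31. The part of these measures in the replicate difference was not tested.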

How the data were processed

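The deposited table holds 1 value per probe set and array, and its values were taken as log2 signals because they run from about 6 to 15. How the authors summarised probes, corrected background and normalized is not given in the sources used here. RNA was pooled from several preparations, treated with DNase and labelled by in vitro transcription, per the labels' protocols. The number of arrays, 2 per group, limits the precision. Of 31099 probe sets, 57 array controls were left out. In the platform annotation of 2016, 20826 of the others had 1 symbol, 436 several and 9780 none. Entrez identifiers of 20758 matched RefSeq GRCr8, and 0 symbols needed an update. Each gene was read by its probe set with the highest control mean.

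The named genes were the 30 brightest probe sets with 1 symbol, all genes of the pairs, the 4 brightest and the dimmest of each list, the 10 largest control differences in each direction above the array median, and the 5 largest of the replicate term. Members and lists were chosen with earlier results of these data known. Listed genes numbered 635, of which 557 were measured.

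Fits used limma 3.58.1 in R 4.3.3 with lmFit, eBayes and a mean-variance trend, tested on simulated data, two-sided, with Benjamini-Hochberg adjustment over all probe sets and a threshold of 0.05. The control difference had 2 residual degrees of freedom and a prior of 6.0, and the replicate term 2 and 10.6. An exact permutation test of 1 array against 1 cannot go below p = 1. Same-numbered replicates tended to deviate together in every pair of groups (r = 0.487, 0.673 and 0.534 over the probe sets as deposited). After quantile normalization the values were 0.388, 0.700 and 0.480. The labels do not say what the numbers mark, so whether they pair the samples is not known. Alternatives were single arrays, quantile normalization, means over probe sets, other thresholds and fits without a group.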

Additional observations from a re-analysis of the deposited data

How the results depend on the processing

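Levels rest on 2 arrays with no detection calls, and bright signals are compressed. No paired analysis was possible because no groups were compared. Of the 100 brightest probe sets, 97 to 98 were kept on single arrays and 99 after quantile normalization, but 65 have 1 symbol. The first form was brighter in 37 to 38 pairs under each alternative. Cell type markers above the reference level numbered 95 over 13 lists, and 94 to 116 under the alternatives. The 116 were at the 75th percentile of the other-organ genes, where 74.3% of all genes were above, against 62.5% at the reference level. Over all lists together the share was near that of all genes, so the total alone marks no cell type. Averaging probe sets reversed Myl2 minus Myl7 to -0.27, moved the size of 26 other pairs and left 19 much the same. Some became smaller, such as Gja1 minus Gja5 from 2.61 to 0.81, and some larger, such as Actn2 minus Actn1 from 2.93 to 3.46. The counts of pairs past the limits thus hold for the brightest probe sets. The control difference gave 359 probe sets at 0.5 log2. In limma its count was 878 with the replicate term removed from the treated arrays (272 higher, 606 lower), and ran from 0 to 84 when single treated arrays were left out, an alternative chosen after seeing the data. Leaving out a control array gives no control difference. The replicate term gave 2206 calls after quantile normalization, 1107 without the stretch group and 5950 without the phenylephrine group, and 1113 to 5963 when single arrays were left out. The cause was not tested.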
